A study of Mus musculus with 12 samples.

Results

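The genes described here are 10 members of the ATF4 and amino acid stress response (Atf4, Ddit3, Trib3, Chac1, Asns, Atf3, Cth, Psat1, Phgdh and Sesn2), followed in a mouse liver cell line given iron, macrophages or both. They were taken by symbol as all probe sets that name 1 member and no other gene, which gave 20 of the 45101 probe sets on the array and 10 of 18194 genes. A further 2 probe sets that name Phgdh together with another gene were left out. All 12 arrays carried RNA from BNL CL.2 cells, a line of liver origin, harvested after 24 h in culture, with 3 arrays per group. In FAC the medium held ferric ammonium citrate, an iron salt that dissolves readily, at 100 micromolar. RAW_FAC had the same iron salt with RAW 264.7 cells, a mouse macrophage line, in an insert. RAW had the macrophages with no iron salt added. In the group called alone the insert held more BNL CL.2 cells and no iron salt was added. Each group is this 1 cell line. The labels do not say whether the arrays of a group stand for separate cultures, and the spread behind every p-value here may therefore be technical.

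ATF4 is a transcription factor whose messenger RNA is read more efficiently when the initiation factor eIF2alpha is phosphorylated. That happens when amino acids run short, when proteins misfold in the endoplasmic reticulum (ER), during heme shortage and under viral infection, each sensed by its own kinase. Because the control acts on translation, the level of Atf4 RNA does not measure ATF4 protein, and the pathway is usually followed through its target genes. These include genes for making or importing amino acids, and genes such as Ddit3, which encodes the transcription factor CHOP.

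The arrays gave log2 signals from RMA, a method that corrects, normalizes and sums the probes of each probe set. The medians of the arrays ran from 5.63 to 5.68, and any 2 arrays correlated at 0.996 to 0.999 across genes. Liver markers were mixed: the keratin genes Krt8, Krt18 and Krt19 averaged 14.28, 14.07 and 13.32 over the 12 arrays, Hnf4a 10.45 and Afp 9.04. The other liver markers, Alb, Ttr, Apoa1, Apoe, Epcam and Sox9, averaged 5.20, 6.49, 6.24, 3.95, 6.74 and 6.17. These lay below the median gene mean of 6.82. Of 12 macrophage markers 10 lay below that median in each of the 4 groups, the exceptions being Cd14 and Laptm5. The log2 of the summed macrophage markers was 12.18 to 12.32 in RAW_FAC, 12.07 to 12.18 in RAW, 12.09 to 12.29 in FAC and 12.09 to 12.27 in alone. Cd14 averaged 12.04 over the 12 arrays and the next highest marker, Laptm5, 6.91. The sum therefore follows Cd14, which was also high without macrophages, and cannot show how much macrophage RNA a group held. All 9 fibroblast and endothelial markers lay below the median. The numbers 1, 2 and 3 in the sample titles mark sets of 4 arrays, and the 4 arrays numbered 1 stood apart for most members, as given below. For the Gapdh control the log2 difference of the 3 prime over the 5 prime probe sets was -0.018 to 0.006 on number 1 arrays, -0.053 to -0.029 on number 2 and 0.056 to 0.112 on number 3, so this measure went with the number, with number 1 between the other two. For Actb the same difference was 0.359 to 0.408 on number 1, 0.319 to 0.381 on number 2 and 0.363 to 0.420 on number 3, and these ranges overlapped. The part of RNA quality in the members' values was not tested.

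The promoters of 4 members are shown because each holds the core of the C/EBP-ATF response element, the DNA motif that ATF4 binds with a C/EBP partner. RefSeq (GRCm38.p6) gave a window of 250 bases before to 50 bases after the start for 9 of the 10 members; Cth had none in the table used. The core was searched as TGATGNAA and the cAMP response element, which binds related factors, as TGACGTCA, on both strands. The core was found in Trib3, Chac1, Asns and Atf3, against 4.51% of the 27025 genes with a window. The cAMP response element was found in 0 of the 9, against 2.03% of genes. The windows are chr2:152344011-152344310 on the minus strand, chr2:119350992-119351291 on the plus strand, chr6:7693160-7693459 on the minus strand and chr1:191183284-191183583 on the minus strand. Each is written 5′ to 3′ along the gene, with the bases of the core, or of its reverse complement, in capitals.
Trib3: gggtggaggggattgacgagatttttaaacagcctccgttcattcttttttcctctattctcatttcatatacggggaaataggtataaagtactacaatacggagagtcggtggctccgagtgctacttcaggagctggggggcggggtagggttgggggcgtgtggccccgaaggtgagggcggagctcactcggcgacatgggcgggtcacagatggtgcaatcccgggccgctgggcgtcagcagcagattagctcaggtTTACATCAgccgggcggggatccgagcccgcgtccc
Chac1: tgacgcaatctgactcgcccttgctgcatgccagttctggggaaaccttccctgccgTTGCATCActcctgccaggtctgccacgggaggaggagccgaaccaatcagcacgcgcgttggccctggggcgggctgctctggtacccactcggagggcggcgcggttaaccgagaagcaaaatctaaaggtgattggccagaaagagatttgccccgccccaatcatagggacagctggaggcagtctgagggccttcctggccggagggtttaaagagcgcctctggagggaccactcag
Asns: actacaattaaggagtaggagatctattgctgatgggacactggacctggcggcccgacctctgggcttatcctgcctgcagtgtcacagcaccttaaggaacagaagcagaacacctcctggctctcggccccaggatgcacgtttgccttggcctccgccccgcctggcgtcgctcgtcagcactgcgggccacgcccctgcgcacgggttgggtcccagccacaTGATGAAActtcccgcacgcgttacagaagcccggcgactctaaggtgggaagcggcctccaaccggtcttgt
Atf3: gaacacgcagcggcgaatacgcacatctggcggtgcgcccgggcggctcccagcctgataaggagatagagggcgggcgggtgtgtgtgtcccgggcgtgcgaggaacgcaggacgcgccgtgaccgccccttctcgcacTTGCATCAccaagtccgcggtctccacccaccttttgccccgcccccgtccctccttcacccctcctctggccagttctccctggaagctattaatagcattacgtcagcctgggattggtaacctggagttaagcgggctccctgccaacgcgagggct
The match begins at base 15 after the start in Trib3, where it reads TTACATCA on the gene's strand. It begins at base -193 from the start in Chac1 and base -110 in Atf3, both reading TTGCATCA, and at base -23 in Asns, reading TGATGAAA. A match is a description of these letters and not a shown binding site. Ddit3, which varied together with Trib3, Chac1 and Asns, had no match in its window, and neither did Atf4, Psat1, Phgdh or Sesn2.

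Iron was tested over all 6 pairs of arrays that share a number and a macrophage condition and differ in iron, as the average of FAC minus alone and RAW_FAC minus RAW. Trib3 and Cth rose in the limma fit that used the replicate number as a block, by 0.47 and 0.40 on the log2 scale (1.39-fold and 1.32-fold), and were higher with iron in 6 of 6 pairs. The count of 2 of 10 members stands beside 0.791% of all genes called in that fit (116 higher and 28 lower). Both calls depended on the fit. Without the block 0 members passed (0.00550% of all genes called), with adjusted p = 0.830 for Trib3 and adjusted p = 0.841 for Cth in limma. When each replicate number gave 1 iron difference, so that n = 3, 0 members passed (0.0330% of genes called), with adjusted p = 0.181 for Trib3 and adjusted p = 0.188 for Cth in limma; this fit was added after the data were seen. At an unadjusted p under 0.05 the blocked fit had 5 members and the fit of 3 differences 5, against 12.27% and 7.97% of all genes, and the fit without the block had 0 members against 6.51%.

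Trib3 encodes a pseudokinase that ATF4 induces and that restrains ATF4 and AKT signalling. Its log2 signal on arrays 1, 2 and 3 was 8.35, 9.78 and 9.43 in FAC, against 8.08, 8.88 and 8.94 in alone. Beside macrophages it was 8.39, 9.78 and 9.32 in RAW_FAC, against 8.07, 9.25 and 9.0 in RAW. The groups overlapped, since the number 1 array of each was the lowest of its 3, yet within a number the iron array was always the higher. The differences for numbers 1, 2 and 3 were 0.27, 0.90 and 0.49 for FAC minus alone, and 0.31, 0.53 and 0.32 for RAW_FAC minus RAW. The average difference was 0.47 ± 0.07 (SE with the block; adjusted p = 0.0179 in limma). A second probe set gave 0.47 ± 0.08, with 6 of 6 pairs higher. Probe sets whose names end in _x_at, such as the main one of Trib3, can hold probes that also match other transcripts.

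Cth encodes cystathionine gamma-lyase, which releases cysteine, a building block of glutathione. It read 9.46, 10.55 and 10.49 in FAC, against 9.17, 9.88 and 10.17 in alone. It read 9.50, 10.76 and 10.50 in RAW_FAC, against 9.17, 10.21 and 10.23 in RAW. Again the groups overlapped while each same-number pair was higher with iron, by 0.27 to 0.67. The average difference was 0.40 ± 0.07 (SE with the block; adjusted p = 0.0208 in limma).

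Leaving out 1 array from the blocked fit changed the count of 2. Neither gene passed without FAC replicate 2, FAC replicate 3, RAW_FAC replicate 2, RAW replicate 1 or RAW replicate 2. Trib3 passed and Cth did not without FAC replicate 1 (adjusted p = 0.0411 and 0.0677 in limma) or RAW replicate 3 (adjusted p = 0.0494 and 0.0520). Each of the other 5 arrays could be left out with both genes still passing. Without the 4 arrays of number 1, Trib3 had 0.56 and Cth 0.45 (adjusted p = 0.0954 and 0.164 in limma). Without number 2 they had 0.35 and 0.30, and without number 3 they had 0.50 and 0.46, not passing in either case.

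**Figure D1:**
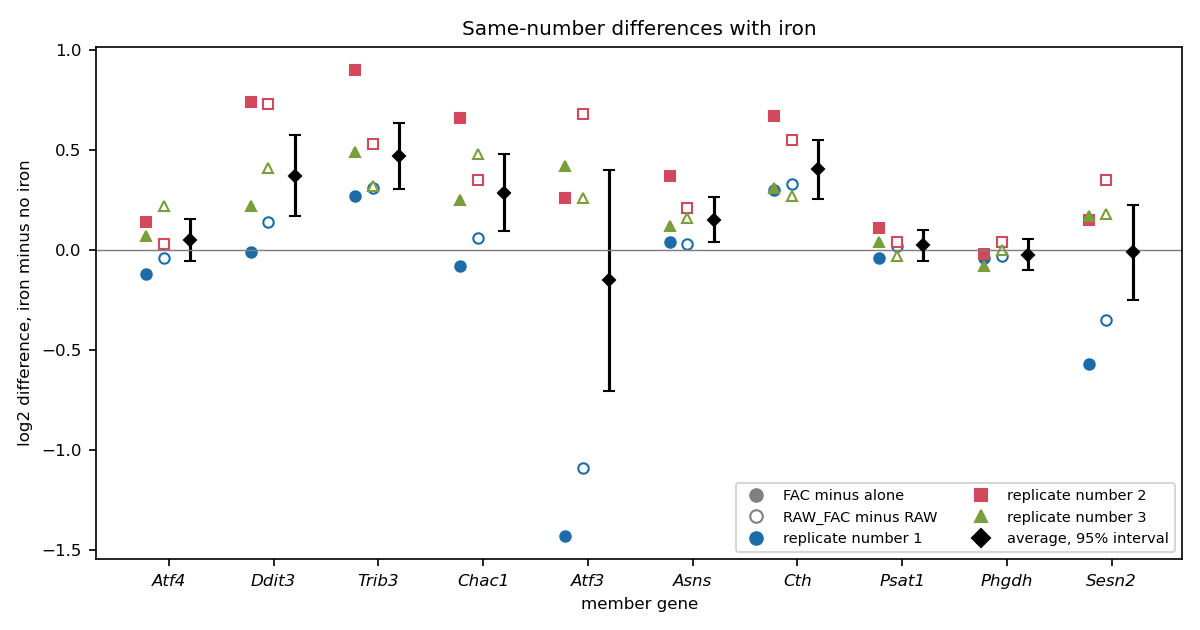
Log2 difference of iron minus no iron for each member, drawn for the 6 same-number pairs (filled for FAC minus alone, open for RAW_FAC minus RAW) beside the average with its 95% interval from the blocked fit. All 6 points of Trib3, Cth and Asns lie above 0, and the number 1 points of Atf3 lie at -1.43 and -1.09.

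Ddit3, Chac1 and Asns had positive average differences with iron that did not pass. Ddit3 encodes CHOP, which promotes cell death under prolonged ER stress. Its main probe set read 8.98, 10.56 and 9.76 in FAC, against 8.99, 9.82 and 9.54 in alone. Next to macrophages it read 9.04, 10.54 and 9.84 in RAW_FAC, against 8.90, 9.81 and 9.43 in RAW. Number 2 arrays differed by 0.74 and 0.73 with iron and number 1 arrays by -0.01 and 0.14. In this probe set the size of the difference thus went with the number. The average was 0.37 ± 0.09 (SE with the block; adjusted p = 0.118 in limma). A second probe set of Ddit3 had a lower signal of 6.54 on average. It was higher with iron in 6 of 6 pairs by 0.18 to 0.49, with the largest value at number 3 of FAC minus alone. It averaged 0.32 ± 0.06 and passed when all 34958 probe sets with 1 symbol were fitted one by one with the block (adjusted p = 0.0390 in limma, 0.581% of probe sets called), in a fit added after the data were seen. Without the block this call was lost (adjusted p = 0.864 in limma).

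Chac1 encodes an enzyme that breaks down glutathione inside the cell. It read 8.97, 10.20 and 9.96 in FAC, against 9.05, 9.54 and 9.70 in alone. It read 9.05, 10.21 and 10.22 in RAW_FAC, against 8.98, 9.86 and 9.73 in RAW. The number 1 pairs differed by -0.08 and 0.06, and the other 4 pairs by 0.25 to 0.66. Its average difference was 0.29 ± 0.09 (SE with the block; adjusted p = 0.194 in limma).

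Asns encodes asparagine synthetase, the enzyme that makes asparagine from aspartate. It read 11.81, 12.35 and 12.27 in FAC, against 11.77, 11.98 and 12.15 in alone. It read 11.73, 12.32 and 12.33 in RAW_FAC, against 11.71, 12.11 and 12.17 in RAW. All 6 pairs were higher with iron, by 0.03 to 0.37, as were 4.14% of all genes in 6 of 6 pairs. The average was 0.15 ± 0.05 (SE with the block; adjusted p = 0.240 in limma), and a second probe set gave 0.18 ± 0.04 with 6 of 6 pairs higher.

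**Figure D2:**
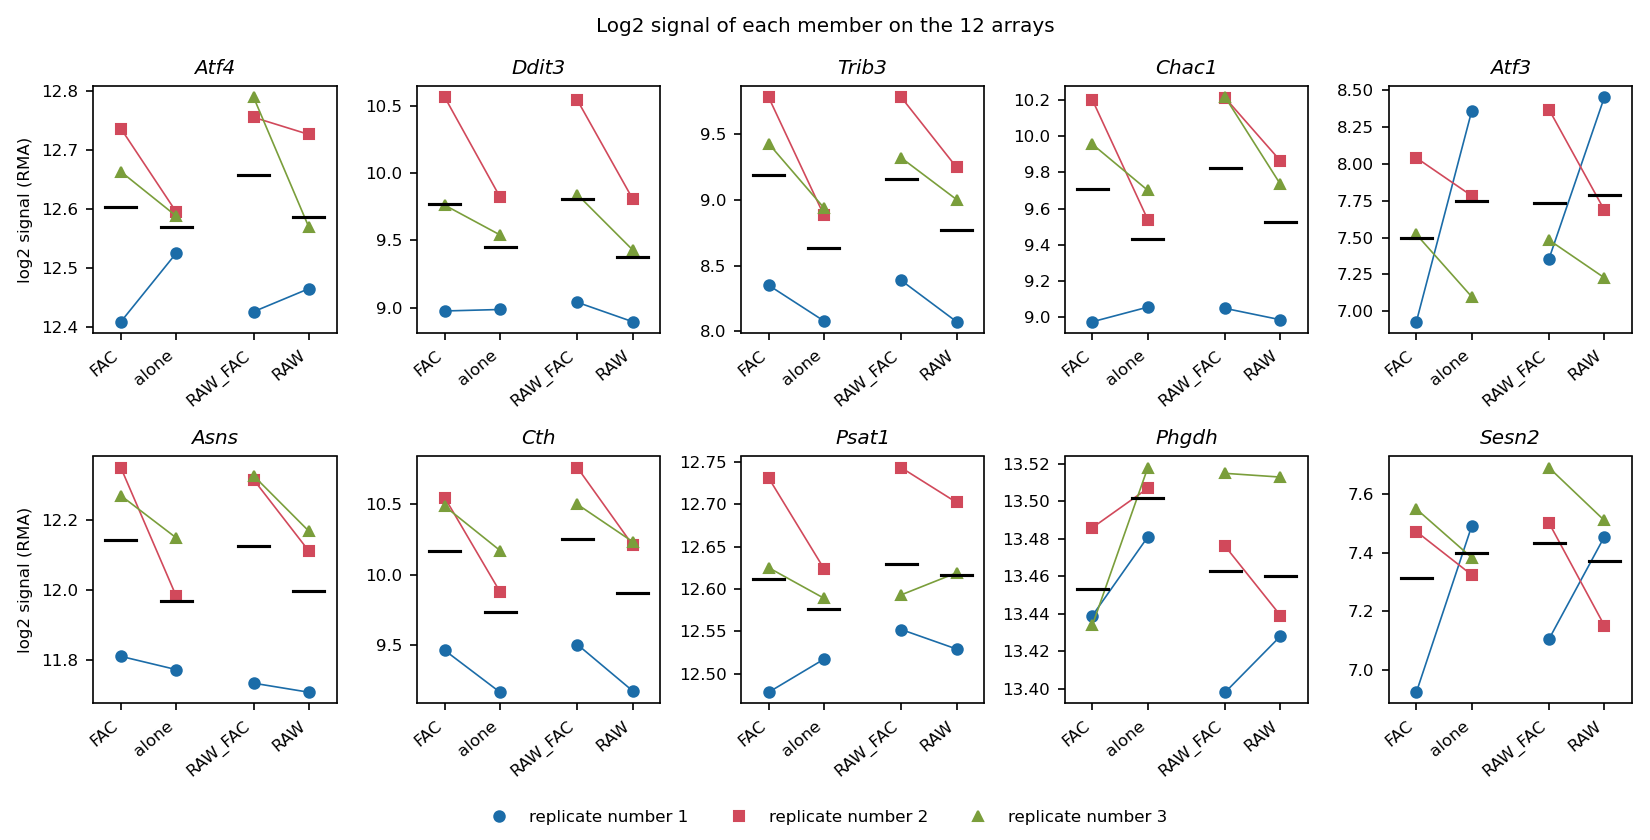
Log2 signal of the 10 members (1 probe set each) on the 12 arrays, with same-number arrays joined within each macrophage condition and black bars for the means of 3 arrays. Number 1 arrays lie lowest for Ddit3, Trib3, Chac1, Asns and Cth in each group, and the Atf3 lines of number 1 run opposite to those of numbers 2 and 3.

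Atf4 itself did not pass in any comparison. It read 12.41, 12.74 and 12.66 in FAC, against 12.52, 12.60 and 12.59 in alone. It read 12.43, 12.76 and 12.79 in RAW_FAC, against 12.47, 12.73 and 12.57 in RAW. The average difference with iron was 0.05 ± 0.05 (SE with the block; 95% interval -0.06 to 0.16; adjusted p = 0.724 in limma), with 4 of 6 pairs above 0. Its other 2 probe sets gave -0.03 ± 0.05 and 0.06 ± 0.04, and the second of these had a low signal of 4.38 on average. The probe set with -0.03 was higher in FAC than in alone by 0.06 on average and in RAW than in alone by 0.11, and neither difference passed.

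Atf3, a stress-induced transcription repressor of the same protein class, went opposite ways by number. It read 6.93, 8.04 and 7.52 in FAC, against 8.36, 7.78 and 7.10 in alone. It read 7.36, 8.37 and 7.48 in RAW_FAC, against 8.45, 7.69 and 7.23 in RAW. Within number 1 the iron arrays were lower by 1.43 and 1.09 on the log2 scale, and within numbers 2 and 3 they were higher by 0.26 to 0.68. Both number 1 arrays without iron were among the 3 highest of the 12 values, with RAW_FAC number 2. The average of -0.15 ± 0.25 (SE with the block; 95% interval -0.70 to 0.40; adjusted p = 0.858 in limma) lies between the number 1 pairs and the other 4.

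Sesn2 encodes a stress-induced protein that binds leucine and restrains the growth kinase complex mTORC1. It split by number in the same way: it read 6.92, 7.47 and 7.55 in FAC, against 7.49, 7.33 and 7.38 in alone. It read 7.11, 7.50 and 7.69 in RAW_FAC, against 7.46, 7.15 and 7.51 in RAW. The number 1 pairs differed by -0.57 and -0.35 and the other 4 by 0.15 to 0.35, with an average of -0.01 ± 0.11 (SE with the block; adjusted p = 0.978 in limma). Its second probe set also had -0.20 and -0.34 in the number 1 pairs, but -0.15 to 0.13 in the others.

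Among the members, the serine pathway enzymes Phgdh and Psat1 varied least on their main probe sets. Phgdh, which catalyses the entry step of serine synthesis from a glycolytic intermediate, lay between 13.40 and 13.52 on all 12 arrays. Psat1, the transaminase of the next step, lay between 12.48 and 12.74. Their average differences with iron were -0.02 ± 0.04 and 0.02 ± 0.04 (SE with the block; adjusted p = 0.846 and 0.845 in limma). The 95% intervals were -0.10 to 0.05 for Phgdh and -0.06 to 0.10 for Psat1. Phgdh had a mean at the 99.3 percentile of all probe sets, and signals near the top of the range can compress differences. Its other 3 probe sets averaged 0.04 to 0.07, and the second of Psat1 averaged 0.05. That Psat1 probe set was higher in RAW than in alone by 0.08 on average, and this difference did not pass.

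Macrophages alone or added to iron did not move a member past the threshold. RAW minus alone went from -0.07 for Ddit3 to 0.14 for Trib3, with 0 of 10 members passing in limma with or without the block, where 0% of all genes passed. RAW_FAC minus FAC went from -0.02 for Trib3 to 0.24 for Atf3, with 0 of 10 members passing and 0% of all genes. At an unadjusted p under 0.05 these 2 comparisons had 0 members with the block, against 6.13% and 5.61% of all genes. The 95% intervals for RAW minus alone were -0.09 to 0.37 for Trib3, -0.07 to 0.34 for Cth, -0.36 to 0.22 for Ddit3 and -0.17 to 0.36 for Chac1 (blocked fit). In RAW minus alone the second probe set of Ddit3 had 0.08 ± 0.08 (SE with the block), opposite in sign to the main one.

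Each iron comparison taken singly called 0 members. With the block FAC minus alone called 0.0330% and RAW_FAC minus RAW 0.0769% of all genes, and the smallest adjusted p of a member in limma was 0.177, for Trib3, and 0.194, for Cth. At an unadjusted p under 0.05 they had 5 and 4 members, against 6.57% and 11.15% of all genes. RAW_FAC minus alone, iron and macrophages against neither, gave 0.53 ± 0.10 for Trib3, 0.52 ± 0.09 for Cth, 0.39 ± 0.12 for Chac1 and 0.36 ± 0.13 for Ddit3 (SE with the block). Here 0 members passed, beside 0.203% of genes, and Cth and Trib3 had adjusted p = 0.0646 and 0.0972 in limma. This comparison shares its alone arrays with FAC minus alone and its RAW_FAC arrays with RAW_FAC minus RAW. Without the block 0% of genes passed in each of these 3 comparisons.

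Whether iron acted differently with macrophages was tested as RAW_FAC minus RAW less FAC minus alone, and 0 of 10 members passed in limma with or without the block, as did 0% of genes. At an unadjusted p under 0.05 there were 0 members in either fit, against 4.34% of all genes with the block and 2.97% without. The difference was -0.16 for Trib3 (95% interval -0.49 to 0.16 with the block), -0.05 for Cth (-0.34 to 0.25), 0.11 for Ddit3 (-0.30 to 0.52) and 0.02 for Chac1 (-0.36 to 0.40). The second probe set of Ddit3 had the opposite sign, -0.10 ± 0.115 (SE with the block). Over the 10 members the median difference with iron was 0.105 for FAC minus alone and 0.10 for RAW_FAC minus RAW, beside 0.00 for all genes in each. Single arrays moved both values. In fits with no block, leaving out FAC replicate 2 gave a FAC minus alone median of -0.03 and leaving out FAC replicate 1 gave 0.236, and over all fits that left out 1 array the RAW_FAC minus RAW median ran from 0.03 to 0.275. Without the number 1 arrays the medians were 0.292 and 0.336 with the block.

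The replicate number separated the members more than any condition. All 4 number 1 arrays lay below the other 8 for 7 of 10 members, namely Atf4, Ddit3, Trib3, Chac1, Asns, Cth and Psat1, as they did for 2.83% of all genes, a split looked at after the values were seen. Trib3 averaged 8.22 on number 1 arrays and 9.30 on the others, a 2.11-fold difference, and Cth averaged 9.33 and 10.35, a 2.03-fold difference. Ddit3 averaged 8.97 on number 1 arrays and 9.91 on the others, and Chac1 9.01 and 9.93. These gaps of 0.91 to 1.08 for the 4 genes exceed the average differences with iron of 0.29 to 0.47. The labels do not say what the numbers stand for.

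In shares of the sum of squares over the 12 arrays, the replicate number took 79.4% for Trib3, 81.4% for Cth, 81.6% for Ddit3, 82.2% for Chac1 and 82.4% for Asns, against a mean of 32.0% over all genes. Iron took 16.4% for Trib3, 14.4% for Cth, 11.6% for Ddit3, 10.4% for Asns and 9.2% for Chac1, against 10.6% over all genes. Macrophages took at most 4.1% for any member, against 8.2% over all genes. The number uses 2 of the degrees of freedom, iron 1 and macrophages 1. In Atf3 and Sesn2 the largest part, 65.7% and 63.3%, was in neither number, iron nor macrophages, which is where their opposite differences by number fall. The spread over the 12 arrays (SD) was 0.61 for Trib3, 0.57 for Ddit3, 0.56 for Cth, 0.52 for Atf3 and 0.50 for Chac1, each above the 99 percentile of all genes, and 0.04 for Phgdh, at the 1.4 percentile.

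**Figure D3:**
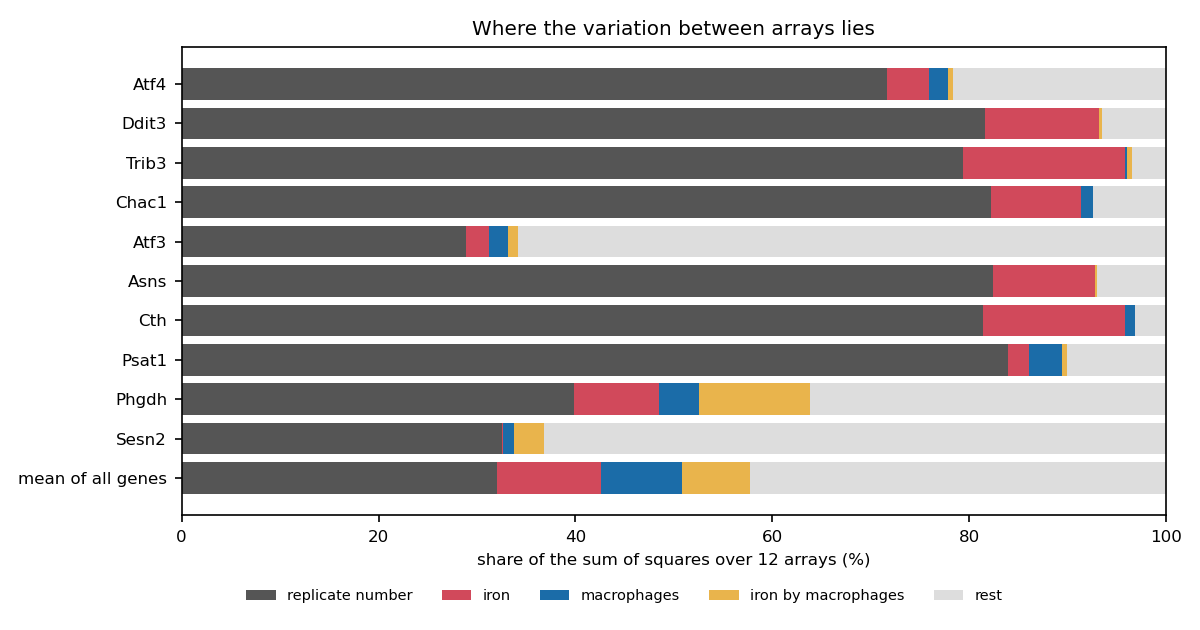
Share of the sum of squares over 12 arrays (%) taken by replicate number, iron, macrophages, their interaction and the rest, for each member and as the mean over all genes. The number takes 71.7% to 84.0% in Atf4, Ddit3, Trib3, Chac1, Asns, Cth and Psat1, while the rest leads in Atf3 and Sesn2.

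Most members varied together. Across the 12 arrays, the 10 pairs among Ddit3, Trib3, Chac1, Asns and Cth correlated at 0.87 to 0.98 (Pearson, a description over arrays that share groups and numbers). The replicate number took 79.4% to 82.4% of the sum of squares in these 5 genes, and correlation apart from the number was not tested. Atf4 correlated with these 5 genes at 0.87 to 0.95 and Psat1 at 0.78 to 0.93. Atf3 correlated with the other 9 members at -0.10 to 0.42. Psph, the last enzyme of serine synthesis, was among the 3 genes most like Chac1, Trib3 and Cth (0.99, 0.98 and 0.98). Atf5, a transcription factor related to ATF4, was among those most like Chac1 and Asns (0.98 for each), and the tRNA synthetase genes Iars and Tars were among those most like Atf4 and Cth (0.96 and 0.98). Ddit3 was most like Gadd45a, a growth arrest gene, and Herpud1, an ER membrane protein of protein disposal (0.98 and 0.97). Trib3 was most like Taldo1, a pentose phosphate enzyme (0.99). Atf3 was most like Glipr1, Ddit4 and Pmaip1 (0.96, 0.94 and 0.92). Genes not chosen for the pathway were as close to some members. Pvr was the gene most like Atf4 (0.965). Phf10 was among those most like Trib3 (0.985), Ampd3 like Chac1 (0.987) and Taldo1 like Ddit3 (0.969). Psat1 was most like D6Wsu163e, Lonrf1 and Armcx3 (0.963, 0.957 and 0.952). Phgdh was most like Msi2, Nemp1 and Cdk12 (0.882, 0.864 and 0.838), and Sesn2 like Nbas, Tmem140 and Mapkap1 (0.913, 0.910 and 0.905).

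Other genes of the pathway and of related stress branches were followed in 8 lists with 80 measured genes. Like the members, these lists were chosen with earlier results of these data known, so counts beside all genes are a description. The counts are given for the average difference with iron. Of the 80 genes, 68 had a positive average difference with iron and the median was 0.12, beside 0.00 for all genes, of which 48.9% were positive. With the block 13 rose and 0 fell in limma (0.791% of all genes called in either direction). Without the block 0 passed, and 1, Slc7a11, passed when each number gave 1 iron difference. Of the 13 that rose with the block, 9 were in the list of 16 ER chaperones and targets of other ER stress branches.

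Amino acid transporters were higher for 9 of 10 genes, and 3 passed with the block. Slc7a11, which imports cystine, rose by 0.89 ± 0.08 (SE with the block, as are the following), the largest value among the 80 genes, and it also passed in FAC minus alone (0.83), RAW_FAC minus RAW (0.95) and RAW_FAC minus alone (1.10) with the block. Slc3a2, its heavy chain partner, rose by 0.37 ± 0.07 and Slc1a4, a neutral amino acid carrier, by 0.34 ± 0.06. The glycine transporter gene Slc6a9 had 0.38 ± 0.08 and did not pass (adjusted p = 0.0812 in limma). All 13 genes of aminoacyl-tRNA synthesis and tRNA export had values above 0, with a median of 0.08 and 0 passing; Wars had 0.20 ± 0.07, Aars 0.14 ± 0.06, Nars 0.13 ± 0.03 and Sars 0.12 ± 0.06.

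Among 8 serine, glycine and one-carbon enzymes 7 were above 0 and 0 passed, with a median of 0.15. Tyms had 0.24 ± 0.08, Shmt2 0.19 ± 0.07, Aldh1l2 0.19 ± 0.10 and Psph 0.18 ± 0.05, and Tyms and Aldh1l2 had low signals of 5.32 and 5.37 on average. Of 7 other amino acid enzymes 4 were above 0 and 0 passed. Aldh18a1, of proline synthesis, had 0.21 ± 0.05 and the transaminase gene Gpt2 0.21 ± 0.08. Cbs, the enzyme that makes the substrate of Cth, had -0.16 ± 0.05 at a signal of 5.66, and the transaminase gene Got1 had -0.15 ± 0.04.

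Of 6 measured genes for eIF2alpha kinases and phosphatase subunits, which act upstream of ATF4, 5 were above 0 with iron and 0 passed, with a median of 0.04. The kinase genes Eif2ak2, Eif2ak3 and Eif2ak4 had average differences with iron of 0.03 ± 0.07, 0.04 ± 0.07 and 0.05 ± 0.04. The remaining kinase gene, Eif2ak1, had -0.005 ± 0.043. Eif2ak1 and Eif2ak3 were each higher with iron in 2 of 6 pairs, Eif2ak2 in 3 of 6 and Eif2ak4 in 5 of 6. Eif2ak2 had larger differences with macrophages, 0.31 for RAW minus alone and 0.51 for RAW_FAC minus FAC, which did not pass. Ppp1r15a, which directs the phosphatase to eIF2alpha and closes the loop, had 0.15 ± 0.13 with iron, and its 6 pairs ran from -0.45 to 0.79. Of 7 partner and related factors 5 were above 0 and 0 passed, among them Nupr1 at 0.27 ± 0.11, Atf5 at 0.19 ± 0.06, Jdp2 at 0.13 ± 0.04 and Cebpb at 0.10 ± 0.04.

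Further stress targets were above 0 for 10 of 13 genes, and 1 passed, Gadd45a, which rose by 0.46 ± 0.08. Sqstm1, an autophagy receptor, had 0.26 ± 0.06, Eif4ebp1, a translation repressor, 0.20 ± 0.05 and the death gene Pmaip1 -0.30 ± 0.14. The ER chaperones and targets of ATF6 and XBP1, the other branches of the ER stress response, had the highest median, 0.29, with 15 of 16 genes above 0 and 9 passing with the block. They included Sdf2l1 (0.62 ± 0.09), Creld2 (0.51 ± 0.07), Herpud1 (0.50 ± 0.08) and Pdia4 (0.36 ± 0.07). The others that rose were Dnajc3, Hyou1, Manf, Xbp1 and Hspa5, by 0.27 to 0.35. When each number gave 1 difference 0 of these 16 passed.

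**Figure D4:**
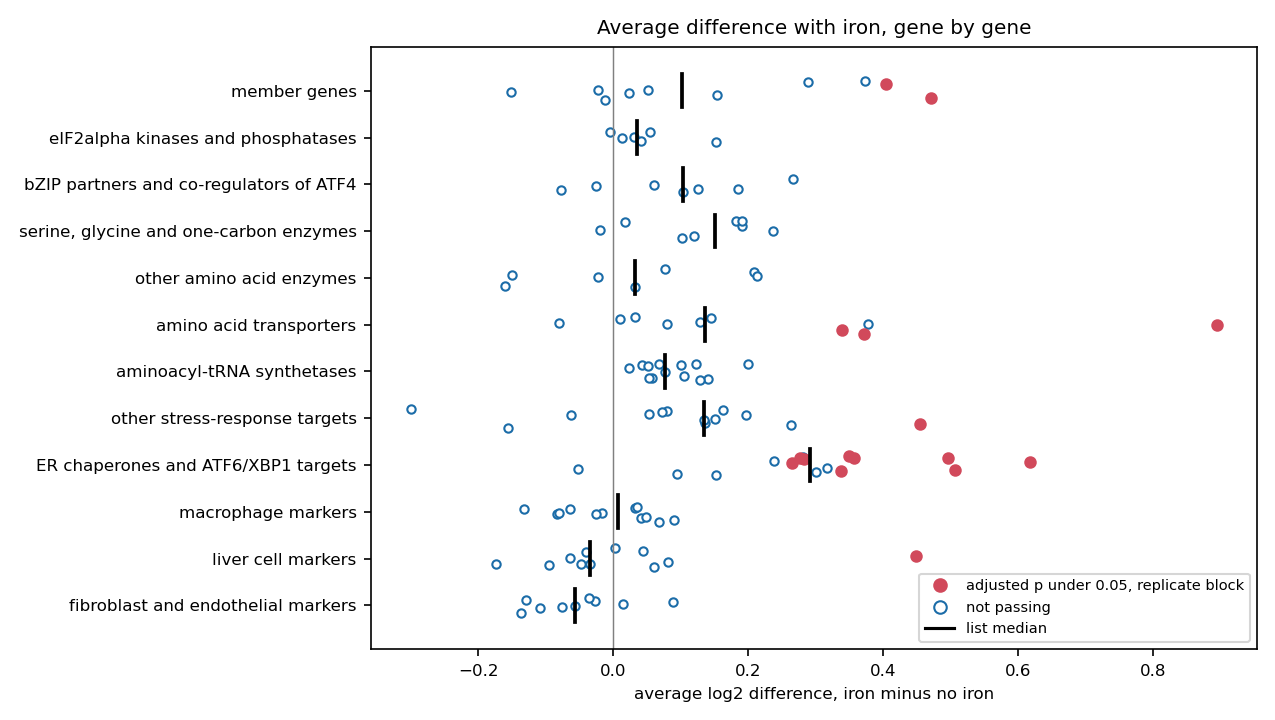
Average log2 difference of iron minus no iron for each gene of the member set, of the 8 lists of pathway and related stress genes and of the 3 marker lists. Filled points mark adjusted p under 0.05 in the blocked limma fit, and bars mark list medians. The ER chaperone list has its median at 0.29, against 0.10 for the members and 0.01 for the macrophage markers.

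Of the marker lists, macrophage markers had a median of 0.01 with iron and fibroblast and endothelial markers -0.06, with 0 passing in each. Liver markers had a median of -0.03, and Afp, a fetal liver protein, rose by 0.45 ± 0.07 with the block (adjusted p = 0.0168 in limma) but did not pass in the fit of 3 differences (adjusted p = 0.184).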

How the data were processed

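Gene expression was measured on Affymetrix arrays of 12 samples. The authors deposited log2 signals from RMA (affy), per the submitters' processing notes, which give no version here. Of 45101 probe sets 34958 had 1 symbol, 932 several and 9211 none. The probe set with the highest mean was kept per gene (18194 genes). Lists held 126 entries, 122 measured.

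A model of 4 group means was fitted with limma 3.58.1 in R 4.3.3, adjusted by Benjamini-Hochberg over all genes at 0.05, two-sided, without and with replicate number as an additive block. Residuals of same-number arrays correlated at 0.26 to 0.53 (18 pairs), so the numbers, which come from the titles, were taken to pair the arrays. Same-number arrays that also shared the iron condition had a median of 0.43, against 0.31 for those that did not. The block does not model this, so blocked SE for iron may be too small. Fits were tested on simulated data that held a shift per number and otherwise independent noise. That test could not show whether the blocked SE is too small. Tables and plots used Python 3.11.15.

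All members were named. From the other lists came the 4 largest average differences with iron, genes past the threshold and Eif2ak1, the remaining kinase gene. Of the 3 genes most correlated with each member, some are given. Members and lists were chosen with earlier results of these data known. Alternatives covered array weights, filters, scaling, probe sets, moderation and left-out arrays.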

Additional observations from a re-analysis of the deposited data

How the results depend on the processing

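The fit without the replicate block called 0 members in each of the 7 comparisons. Its count for the average difference with iron became 2 with the replicate block and 3 with the block over all probe sets, and 0 to 2 when 1 array was left out. It stayed 0 under the other alternatives, as did the counts of members lower and all counts of the other 6 comparisons. The block, by which the titles' numbers pair the arrays, changed no other call of a member. Without the arrays of number 1 the median over members became 0.292 for FAC minus alone, 0.336 for RAW_FAC minus RAW, 0.370 for RAW_FAC minus alone and 0.309 for the average difference with iron, against 0.105, 0.10, 0.122 and 0.102 in the fit of all arrays. With array weights the median of RAW_FAC minus FAC became -0.007, against 0.047. When 1 array was left out, the median ranged over all fits from -0.030 to 0.236 for FAC minus alone, which turns its sign, 0.018 to 0.285 for RAW_FAC minus alone, 0.051 to 0.180 for the average difference with iron, 0.030 to 0.275 for RAW_FAC minus RAW, -0.062 to 0.126 for RAW minus alone, -0.132 to 0.322 for RAW_FAC minus FAC and -0.150 to 0.266 for the interaction. With the block the values farthest from the full fit were 0.271 for RAW_FAC minus RAW (without RAW replicate 1), 0.111 and -0.047 for RAW minus alone (without alone replicates 1 and 2), and -0.056 and -0.079 for the interaction (without FAC and alone replicate 1). For RAW_FAC minus FAC they were -0.025 and 0.096 without FAC replicates 1 and 2, and 0.121 and 0.004 without RAW_FAC replicates 1 and 2. Among values of single members under alternatives, 2319 moved by less than 1 SD between numbers and 191 by more. The number of arrays, 3 a group, limits the precision.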

Other observations

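Of all genes, 753 of 18194 (4.14%) were higher with iron in all 6 same-number pairs and 727 (4.0%) were lower in all 6. Among the members Trib3, Asns and Cth were higher in all 6, and 0 were lower in all 6. Both Got1 and Cbs were lower in 6 of 6 pairs, by 0.10 to 0.23 and 0.01 to 0.34 on the log2 scale, and neither passed (adjusted p = 0.148 and 0.208 with the block in limma). Pmaip1, among the 3 genes most like Atf3, ranged from -0.94 to 0.15 over the 6 pairs, and Ddit4, another of them, from -0.68 to 0.24.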
